A study of Homo sapiens with 4 samples.

Results

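The epithelial-mesenchymal transition (EMT) regulators described here are 10 genes of the 23228 gene symbols counted in this study: the transcription factors SNAI1, SNAI2, ZEB1, ZEB2 and TWIST1, the mesenchymal genes VIM and CDH2, and the epithelial genes CDH1, ESRP1 and GRHL2. They were taken from the count files by symbol. The cells came from SKOV3, an established human ovarian cancer cell line, and were sorted with the ALDEFLUOR assay for aldehyde dehydrogenase activity (ALDH+), a property used to enrich ovarian cancer stem cells (OCSCs). These ALDH+ OCSCs were grown as spheroids in serum-free medium with growth factors, hydrocortisone and insulin. For 24 h they received either vehicle (2 samples) or 5 µM LY500307, an agonist of estrogen receptor beta (2 samples), and RNA was then sequenced to find the genes whose expression differed between these groups. No source states that the 2 samples of a group were separate cultures, so the p-values measure only the spread between these samples, which may be technical.

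EMT is a program in which epithelial cells loosen their junctions and take up a spindle-shaped, motile state. SNAIL, ZEB and TWIST proteins bind E-box sequences and repress CDH1, the gene of E-cadherin, while GRHL2 and the splicing regulator ESRP1 maintain the epithelial state. ZEB1 and ZEB2 are also held down in epithelial cells by the miR-200 family of microRNAs, which ZEB1 represses in turn, and tumor cells with EMT features are known for invasion and for overlap with stem-like states.

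The miR-200 family and its sites are shown because they are the sequence feature that sets ZEB1 and ZEB2 apart from the other members. The mature microRNAs, from RefSeq (GRCh38.p14), have the seed, bases 2 to 8, in capitals. They fall into one seed group of hsa-miR-141-3p and hsa-miR-200a-3p, and another of hsa-miR-200b-3p, hsa-miR-200c-3p and hsa-miR-429.
hsa-miR-141-3p: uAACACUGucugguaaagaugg
hsa-miR-200a-3p: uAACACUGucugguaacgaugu
hsa-miR-200b-3p: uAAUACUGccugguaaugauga
hsa-miR-200c-3p: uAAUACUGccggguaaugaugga
hsa-miR-429: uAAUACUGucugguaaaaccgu
An exact complement of the seed reads CAGTGTT for the first group and CAGTATT for the second, and both were searched on the sense strand of the 3′ UTR of each canonical transcript (GENCODE, GRCh37). The following sites, with the seed match in capitals, are examples from ZEB1 (positions 369 and 782 of its 3′ UTR) and ZEB2 (positions 208 and 392).
ZEB1 site at 369: attgttttatcttatCAGTATTa
ZEB1 site at 782: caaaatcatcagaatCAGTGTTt
ZEB2 site at 208: tgcaaaaattttgtaCAGTGTTa
ZEB2 site at 392: cgcactaccatacatCAGTATTt
The 3′ UTR of ZEB1 (2540 nt) held 9 such matches, 6 of CAGTATT and 3 of CAGTGTT. That of ZEB2 (5370 nt) also held 9, with 5 of CAGTATT and 4 of CAGTGTT. At least 9 matches were present in 0.0412% of the 19406 3′ UTRs searched, and in 8 of the 4550 that were at least as long as that of ZEB1 and 6 of the 1116 at least as long as that of ZEB2. ESRP1 had 2 matches, SNAI2 and GRHL2 had 1 each, and SNAI1, TWIST1, VIM, CDH1 and CDH2 had 0, while 28.2% of all 3′ UTRs held at least 1. A seed match is a match of letters and was not tested as a site in these cells. The hairpin genes MIR200A, MIR200B, MIR429, MIR200C and MIR141 were listed at 0 reads in all 4 libraries. Hairpins are short precursors that a library of long RNA recovers poorly, and the mature microRNAs were not measured.

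Per sample, 28841701 to 34943882 reads were counted on genes. CPM, the reads of a gene scaled to a common library size, use library sizes scaled by edgeR's TMM method, and at these depths 3 reads, taken as the floor, equal 0.0864 to 0.106 CPM. Intervals on counts cover counting error only. Of the defining genes listed for SKOV3 and ovarian cancer, 5 of 8 had a mean under 1 CPM. PAX8, a lineage factor of Müllerian epithelium, had 0 reads in all 4 libraries, WT1 had 0 to 2, MUC16 (CA125) had 1 to 6 and KRT7 had 0 or 1. ERBB2, a gene known to be amplified in SKOV3, had a mean per-length level of 11.8 RPKM (CPM per kilobase of transcript), above that of 69.3% of the 19684 genes ranked. Among the genes behind the ALDEFLUOR sort, ALDH2 was at 66.4 CPM, ALDH1A1 at 5.18 CPM and ALDH3A1 at 0.194 CPM. The endothelial genes PECAM1 and CDH5 and the leukocyte gene PTPRC had 0 to 4 reads in each library. Of the 5 endothelial genes listed, 4 had a mean under 1 CPM, and KDR was at 142 CPM. Of the 6 leukocyte genes listed, 5 had a mean under 1 CPM, and CD68 was at 14.0 CPM. These markers therefore do not bear out the labelled cell line, and the EMT values are those of cells labelled SKOV3. The part of the cells' identity in the EMT values was not tested.

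The 10 genes spanned the whole range of expression, with VIM, TWIST1 and ZEB1 high, CDH2 and ZEB2 below the median of the genes ranked, and the epithelial genes near or at 0 in vehicle and LY500307 alike. Ranked by mean RPKM over the 4 libraries, VIM was first at 553, above 99.8% of the genes ranked. It was followed by TWIST1 at 25.7, ZEB1 at 19.2, SNAI1 at 8.46, SNAI2 at 3.91, CDH2 at 1.26, ZEB2 at 0.217, ESRP1 at 0.0441 and CDH1 at 0.0142 RPKM, with GRHL2 at 0. The ranges of most neighbours in this order were well apart. TWIST1 (22.5 to 27.3 RPKM) and ZEB1 (14.5 to 22.4 RPKM) nearly met, and CDH1 (0 to 0.0257 RPKM) met GRHL2 at 0. In bulk RNA, fewer cells that express a gene and less RNA per cell cannot be told apart.

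**Figure D1:**
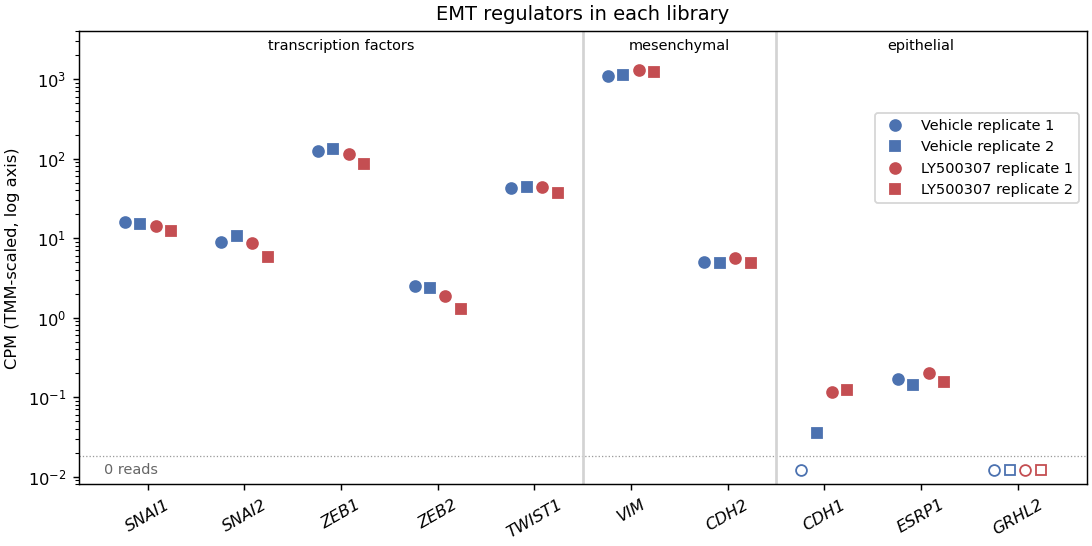
TMM-scaled CPM of each EMT regulator (log axis) in the 4 libraries, with circles for replicate 1, squares for replicate 2, blue for vehicle and red for LY500307. Open symbols below the dotted line are libraries with 0 reads. VIM lay at 1109 CPM or above in every library, and CDH1, ESRP1 and GRHL2 lay at 0.202 CPM or below.

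VIM, on chromosome 10 (chr10:17270240-17279592, GRCh37, plus strand), encodes vimentin, the intermediate filament of mesenchymal cells. It had 33227 and 31588 reads in the vehicle replicates, which is 1109 and 1111 CPM. It had 45140 and 40215 reads in the LY500307 replicates, which is 1301 and 1244 CPM. Both treated libraries were above both vehicle libraries, and the vehicle pair was nearly identical. The mean was 1110 ± 1.98 CPM in vehicle and 1272 ± 39.9 CPM with LY500307 (SD, n = 2 each), a log2 fold change of 0.20 (SE 0.11; 95% interval -0.05 to 0.44). This did not pass edgeR's test (adjusted p = 0.461). The summed level of 9 stromal markers, led by the collagen genes COL1A1, COL1A2 and COL3A1, was 965 to 973 CPM in vehicle and 1058 to 1225 CPM with LY500307, while FAP, the fibroblast activation protein, was at 0 reads throughout. The collagen genes carried this difference, with log2 fold changes of 0.28, 0.44 and 0.13, whereas DCN (-0.20), LUM (-0.10) and POSTN (-0.42) had negative values. Their part in the VIM values was not tested.

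CDH2 (chr18:25512843-25757910, minus strand) encodes N-cadherin, the cadherin gained in EMT. It had 148 and 137 reads in vehicle and 197 and 156 reads with LY500307, which corresponds to 4.94, 4.82, 5.68 and 4.83 CPM. The groups overlapped, because LY500307 replicate 2 lay between the vehicle libraries. The log2 fold change was 0.11 (SE 0.21; 95% interval -0.38 to 0.59; edgeR adjusted p = 0.838).

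CDH1 (chr16:68771195-68869440, plus strand), the gene of E-cadherin, had 0 reads in vehicle replicate 1 and 1 read in vehicle replicate 2. It had 4 reads in each LY500307 library. All 4 values were at or close to the floor, and CDH1 was therefore too low to enter the test. Summed over each group, there was 1 read in vehicle (exact Poisson 95% interval 0.0253 to 5.57). With LY500307 there were 8 reads (3.45 to 15.8). These intervals overlap, which is not a test of a difference. In a fit with no filter on low counts, CDH1 had a log2 fold change of 2.55 (SE 1.87; edgeR adjusted p = 0.628).

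Set against CDH1 within a library, VIM was higher per length by 4 orders of magnitude or more. The counting intervals of the treated libraries reached just below that. The VIM to CDH1 ratio per length had a lower bound of 24738 in vehicle replicate 1, where CDH1 had 0 reads and was set to the floor of 3 reads. The ratio was 70552 in vehicle replicate 2 (counting interval 12662 to 2786758). The treated libraries had ratios of 25205 (9844 to 92512) and 22455 (8770 to 82419). The cadherin pair pointed the same way. The CDH2 to CDH1 ratio per length had a lower bound of 59.1 in vehicle replicate 1, with CDH1 at the same floor. It was 164 (29.0 to 6529) in vehicle replicate 2. It was 59.0 (22.7 to 219) and 46.7 (17.9 to 174) in the treated libraries. With 0, 1, 4 and 4 reads of CDH1 behind them, these ratios were not compared between the groups.

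ESRP1 (chr8:95653302-95719694, plus strand) directs epithelial splicing, for example of FGFR2 and CD44. It had 5 and 4 reads in vehicle and 7 and 5 reads with LY500307, at 0.141 to 0.202 CPM, and the groups overlapped. It was not tested, and in the fit with no filter its adjusted p was 0.953 with edgeR. GRHL2 (chr8:102504667-102681954, plus strand), a grainyhead factor that activates CDH1 and other junction genes, had 0 reads in all 4 libraries. A count of 0 allows up to 3 reads per library, or 0.0864 to 0.106 CPM.

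Among the repressors, ZEB1 (chr10:31607424-31818742, plus strand) was the member with the smallest p. It had 3710 and 3784 reads in vehicle, which is 124 and 133 CPM. It had 3919 and 2777 reads with LY500307, which is 113 and 85.9 CPM. Both treated libraries were below both vehicle libraries, and replicate 2 was the lower of the treated pair. The mean was 128 ± 6.61 CPM in vehicle and 99.4 ± 19.1 CPM with LY500307 (SD, n = 2 each), a log2 fold change of -0.37 (SE 0.14; 95% interval -0.69 to -0.05). The interval lay below 0, and the adjusted p with edgeR was 0.422. The difference was smaller than the 0.5 on the log2 scale that the study's criteria require, so ZEB1 was not called.

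ZEB2 (chr2:145121931-145278624, minus strand), the other zinc finger E-box binding repressor, was much lower than ZEB1. It had 74 and 68 reads in vehicle (2.47 and 2.39 CPM) and 65 and 42 reads with LY500307 (1.87 and 1.30 CPM). Both treated libraries were again below both vehicle libraries. Of the 7 members tested, it had the log2 fold change farthest from 0, at -0.61 (SE 0.32; 95% interval -1.35 to 0.12), and it did not pass edgeR's test (adjusted p = 0.451). A log2 fold change of larger size was found for 7.23% of all genes tested. Per length, ZEB1 exceeded ZEB2 by 78.2 and 86.8 times in the vehicle libraries and by 94.1 and 103 times in the LY500307 libraries. The log2 ratio of their counts differed by 0.26 between groups, with an exact two-sided permutation p of 0.33, the smallest that 2 against 2 samples can give.

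SNAI1 (chr20:48599517-48605423, plus strand) encodes SNAIL, a labile zinc finger repressor of CDH1. It had 481 and 426 reads in vehicle (16.0 and 15.0 CPM) and 496 and 400 reads with LY500307 (14.3 and 12.4 CPM). Both treated libraries were below both vehicle libraries by a small margin. The log2 fold change was -0.22 (SE 0.16; 95% interval -0.58 to 0.14; edgeR adjusted p = 0.548).

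SNAI2 (chr8:49830157-49834299, minus strand) encodes SLUG, the paralog of SNAIL. It had 268 and 303 reads in vehicle (8.94 and 10.7 CPM) and 299 and 189 reads with LY500307 (8.62 and 5.85 CPM). LY500307 replicate 1 lay just under vehicle replicate 1, and LY500307 replicate 2 lay far below the other 3 libraries. The log2 fold change was -0.44 (SE 0.23; 95% interval -0.96 to 0.09; edgeR adjusted p = 0.453). Per length, SNAI1 exceeded SNAI2 in every library, by 1.80 to 2.71 times. The log2 ratio of SNAI2 to SNAI1 counts differed by -0.24 between the groups (exact two-sided permutation p = 0.667).

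TWIST1 (chr7:19060614-19157259, minus strand), a basic helix-loop-helix factor of mesoderm and neural crest, had 1264 and 1251 reads in vehicle (42.2 and 44.0 CPM). It had 1543 and 1186 reads with LY500307 (44.5 and 36.7 CPM). The treated libraries lay on either side of the vehicle libraries. The log2 fold change was -0.09 (SE 0.13; 95% interval -0.39 to 0.22; edgeR adjusted p = 0.788).

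Of the 10 EMT regulators, 7 passed the expression filter, and 0 of these 7 met the study's criteria of an unadjusted p under 0.05 with a log2 fold change over 0.5 in size. Over all 14473 genes tested, 4.62% met them with edgeR, 2.76% higher and 1.86% lower with LY500307. With DESeq2, 0 of the 7 and 4.01% of all genes met them. An unadjusted edgeR p under 0.05 was found for 1 of the 7 (ZEB1) and for 11.6% of all genes, and an adjusted p under 0.05 for none of the members and for 0% of all genes (DESeq2 gave 20 genes). The groups did not overlap for 5 of the 7, where VIM was higher and SNAI1, SNAI2, ZEB1 and ZEB2 were lower, a share to be read against 48.6% of all genes. The median log2 fold change of the 7 was -0.22, beside -5.64e-05 over all genes tested.

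**Figure D2:**
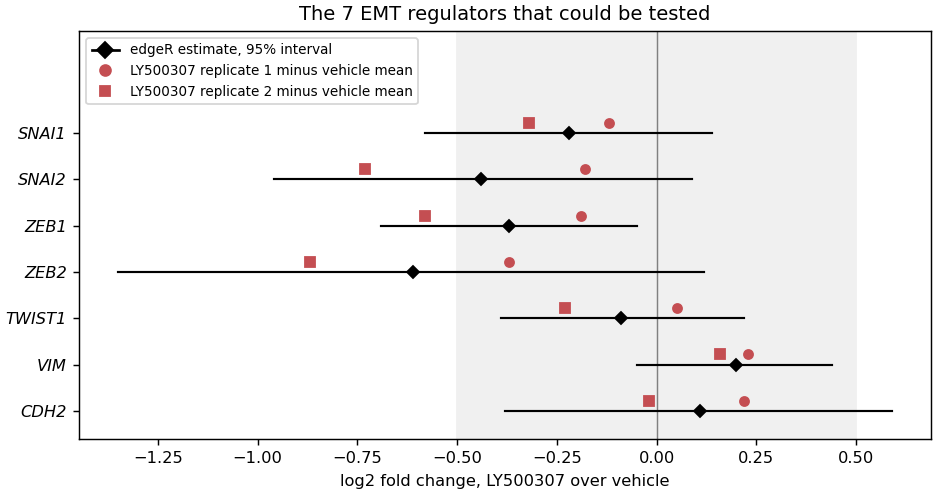
Log2 fold change of LY500307 over vehicle for the 7 EMT regulators tested (diamond, edgeR estimate with 95% interval), with each LY500307 replicate's difference from the vehicle mean as red symbols. The grey band spans changes of 0.5 or less in size. The interval of ZEB1 alone lay wholly below 0, and replicate 2 (squares) lay below replicate 1 (circles) for all 7 genes. Over all genes tested, the median difference from vehicle was 0.00298 in replicate 1 and 0.00342 in replicate 2.

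The LY500307 replicates were far from each other. Set against counting error, the chi-square per degree of freedom was 42.5 for the LY500307 pair and 5.16 for the vehicle pair. LY500307 replicate 2 was below LY500307 replicate 1 in CPM for all 7 members tested. The share of all genes with this order was not counted. Over all genes tested, the median log2 difference from the vehicle mean was 0.00298 in replicate 1 and 0.00342 in replicate 2. Against the vehicle mean, on the log2 CPM scale, ZEB1 was at -0.19 in replicate 1 and -0.58 in replicate 2, ZEB2 at -0.37 and -0.87, and SNAI2 at -0.18 and -0.73. VIM was the exception in size, at 0.23 and 0.16. LY500307 replicate 2 also had the lowest share of reads outside genes, 25.5% against 28.4% to 30.8% in the other libraries, and the part of this in the values was not tested. Without it, the log2 fold change was -0.18 for ZEB1 (edgeR adjusted p = 0.141), -0.37 for ZEB2 and -0.18 for SNAI2. Without LY500307 replicate 1, ZEB1 (-0.58) and SNAI2 (-0.74) met the study's criteria, as did 13.3% of all genes tested in that fit. VIM was at 0.23 without replicate 2 (edgeR adjusted p = 2.48e-06) and at 0.17 without replicate 1 (edgeR adjusted p = 9.20e-05), below the size required for a call in both. An adjusted p under 0.05 was then found for 590 and 5002 genes in all, respectively, against 0 with both replicates. Both fits assume that the lone treated library varies as the vehicle pair does.

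The wider EMT network was read from lists of 173 further genes found in the counts, of which 133 were tested and 8 were called, 6 higher and 2 lower. That is 6.02% called, beside the 4.62% of all genes, and the groups did not overlap for 47.4%, beside 48.6%. No gene of these lists had an adjusted p under 0.05 with edgeR. The calls named below therefore rest on unadjusted p-values.

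Of the 24 other EMT transcription factors, 19 were tested and 1 was called, beside 4.62% of all genes tested. ID1, an inhibitor of DNA binding that sequesters the E-protein partners of TWIST1, had 68 and 62 reads in vehicle and 129 and 113 reads with LY500307. Both treated libraries were above both vehicle libraries, and the log2 fold change was 0.70 (SE 0.25; edgeR adjusted p = 0.422). ID1 was not called by DESeq2 (0.70), with the length correction (0.54), with either correction plus the replicate block (0.61 for GC content, 0.54 for length) or in 3 of the 4 fits with a library left out (0.65 to 0.72). Its relatives, named after their values were seen, also had both treated libraries above vehicle. ID3 had a log2 fold change of 0.44 (edgeR adjusted p = 0.422) and ID2 one of 0.72 (adjusted p = 0.484), and neither was called. The list's highest genes by CPM were HMGA2, a chromatin protein upstream of SNAI1 and TWIST1, and SOX4. HMGA2 had a mean of 2023 ± 17.2 CPM in vehicle and 1691 ± 137 CPM with LY500307 (SD, n = 2 each; log2 fold change -0.26, edgeR adjusted p = 0.431). SOX4 was at 560 ± 15.0 and 577 ± 23.8 CPM. The list's median log2 fold change was -0.09.

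The list of 16 other epithelial transcription and splicing factors also held the splicing factors RBFOX2 and QKI, which promote mesenchymal exon use. Of its 16 genes, 10 had a mean under 1 CPM, as CDH1, ESRP1 and GRHL2 did. ESRP2, the paralog of ESRP1, had 4 and 1 reads in vehicle and 2 and 0 with LY500307. Of the 8 tested, 1 was called, beside 4.62% of all genes tested. The called gene was GRHL3, a relative of GRHL2. It had 103 and 70 reads in vehicle and 170 and 165 reads with LY500307, with no overlap, and its log2 fold change was 0.76 (SE 0.25; edgeR adjusted p = 0.422). It was not called without vehicle replicate 2, at 0.54. RBFOX2 and QKI were the list's highest genes by CPM. RBFOX2 was at 450 ± 2.88 CPM in vehicle and 407 ± 37.8 CPM with LY500307, and QKI at 165 ± 3.59 and 153 ± 7.29 CPM. Neither passed the test.

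All 17 corepressors through which SNAIL, ZEB and TWIST proteins act were expressed and tested. With edgeR or DESeq2, 0 were called, beside 4.62% and 4.01% of all genes tested. An unadjusted edgeR p under 0.05 was found for 2 of the 17, a share near the 11.6% of all genes. These 2 are named for that reason. They were the Polycomb subunits EZH2 (log2 fold change -0.35) and SUZ12 (-0.29), both with an adjusted p of 0.422. The highest genes by CPM were the remodelers CHD4, at 681 ± 5.86 CPM in vehicle and 655 ± 60.0 CPM with LY500307, and SMARCA4, at 602 ± 33.4 and 528 ± 103 CPM. The list's median log2 fold change was -0.05.

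SNAIL and TWIST are short-lived proteins, and all 18 genes listed for their turnover were tested. FBXL14, an F-box protein that marks SNAIL for degradation, was the 1 gene called, beside 4.62% of all genes tested. It had 507 and 416 reads in vehicle and 624 and 916 reads with LY500307, a log2 fold change of 0.55 (SE 0.22; edgeR adjusted p = 0.428). It was not called without LY500307 replicate 2 (0.19), without vehicle replicate 2 (0.45) or with GC or length corrections (0.42 to 0.49). TRIM28 (376 ± 15.9 CPM in vehicle, 469 ± 98.1 CPM with LY500307) and the kinase gene CSNK2A1 (213 ± 16.8 and 202 ± 17.5 CPM) were highest by CPM and did not pass the test. The 11 genes of the TGF-beta pathway, a classical inducer of EMT, were all tested. They gave 0 calls with edgeR or DESeq2, beside 4.62% and 4.01% of all genes tested. They also gave 0 genes with an unadjusted edgeR p under 0.05, beside 11.6% of all genes. SMAD2, which the TGF-beta receptors activate, had a log2 fold change of -0.04, and its partner SMAD4 had one of 0.00.

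The low CDH1 was not matched by all epithelial surface genes. EPCAM, the epithelial cell adhesion molecule, had 6241 and 6213 reads in vehicle and 8327 and 6259 reads with LY500307. Its mean level over the 4 libraries was 139 RPKM, above 98.0% of the genes ranked, and its log2 fold change was 0.02 (SE 0.12; edgeR adjusted p = 0.946). TJP1, the tight junction scaffold ZO-1, was at 310 ± 3.05 CPM in vehicle and 275 ± 50.9 CPM with LY500307. Of the 36 epithelial junction and keratin genes, 15 had a mean under 1 CPM. Of these 36, 25 were tested and 2 were called, beside 4.62% of all genes tested. F11R, a junctional adhesion molecule, was the called gene with the smallest p, with 847 and 937 reads in vehicle and 1439 and 1545 with LY500307. Its log2 fold change was 0.54 (SE 0.14; edgeR adjusted p = 0.422), and 0.44, under the size required, without LY500307 replicate 2 or without vehicle replicate 1. MUC1, an apical mucin, was called lower, with 262 and 246 reads in vehicle and 231 and 159 with LY500307 (log2 fold change -0.59, SE 0.21, edgeR adjusted p = 0.422). It was not called without LY500307 replicate 2 (-0.38), nor without either vehicle replicate (-0.58 and -0.59). The list's median was 0.30, beside -5.64e-05 over all genes tested, with 16 positive and 9 negative values. That median is the value of KRT18 alone, and the next value below it was that of EPCAM, at 0.02. The 2 highest values had wide errors, CLDN4 at 1.15 (SE 0.64) and CRB3 at 0.72 (SE 0.91). KRT7 and KRT19 had 0 to 2 reads per library. KRT8 and KRT18 share sequence with many pseudogenes, so their counts are uncertain.

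**Figure D3:**
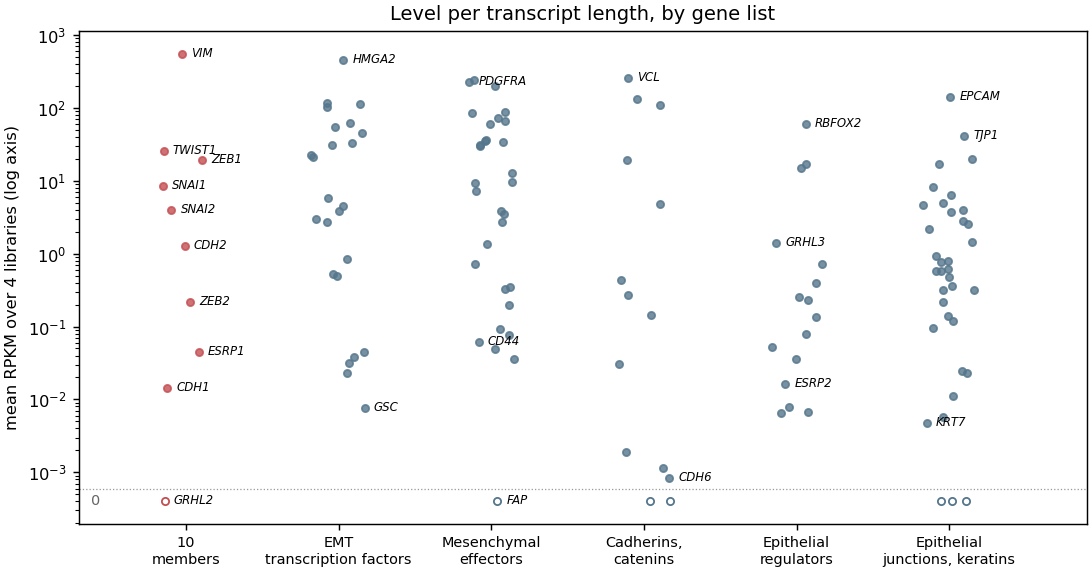
Mean RPKM over the 4 libraries (log axis) for the 10 members and for the genes of 5 EMT lists, where each point is 1 gene. Open points below the dotted line are genes with 0 reads. The epithelial lists run from 0 up to EPCAM at 139 RPKM, and VIM at 553 RPKM stands above all other genes drawn. The epithelial regulators as drawn include RBFOX2 and QKI, which promote mesenchymal exon use.

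Of the 14 other cadherin and catenin genes, 7 had a mean under 1 CPM and only 8 were tested. With edgeR or DESeq2, 0 of the 8 were called, beside 4.62% and 4.01% of all genes tested. An unadjusted edgeR p under 0.05 was found for 0 of the 8, beside 11.6% of all genes. The genes highest by CPM were CTNNB1 and VCL. CTNNB1, the gene of beta-catenin, was at 445 ± 15.1 CPM in vehicle and 532 ± 107 CPM with LY500307, and VCL, the gene of the actin linker vinculin, at 1359 ± 13.4 and 1435 ± 18.9 CPM.

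The 31 other mesenchymal effector genes gave 3 calls among 26 tested, 2 higher and 1 lower, beside 4.62% of all genes tested. An unadjusted edgeR p under 0.05 was found for 5 genes higher and 1 lower, beside 11.6% of all genes. The groups did not overlap for 13 genes higher and 4 lower, beside 48.6% of all genes. Of the calls, S100A4 and MMP14 are described. S100A4, a calcium-binding protein also called FSP1, had 876 and 806 reads in vehicle and 1125 and 1891 with LY500307. Its log2 fold change was 0.66 (SE 0.24; edgeR adjusted p = 0.422), and 0.17 without LY500307 replicate 2, where it was no longer called. It was also not called with the length correction, at 0.47 and, with the replicate block added, at 0.43. MMP14, a membrane-bound matrix metalloproteinase, was called lower, with 508 and 478 reads in vehicle and 406 and 359 with LY500307 (log2 fold change -0.57, SE 0.15, edgeR adjusted p = 0.422). For MMP14, the treated libraries stood clear of the vehicle libraries and close to each other, and the call held under every alternative run, with -0.53 without LY500307 replicate 2. The highest genes by CPM were PDGFRA, the platelet-derived growth factor receptor alpha, at 1420 ± 22.7 CPM in vehicle and 1418 ± 24.4 CPM with LY500307, and the actin-binding caldesmon gene CALD1, at 1309 ± 39.1 and 1071 ± 180 CPM. The median over the list was 0.12.

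**Figure D4:**
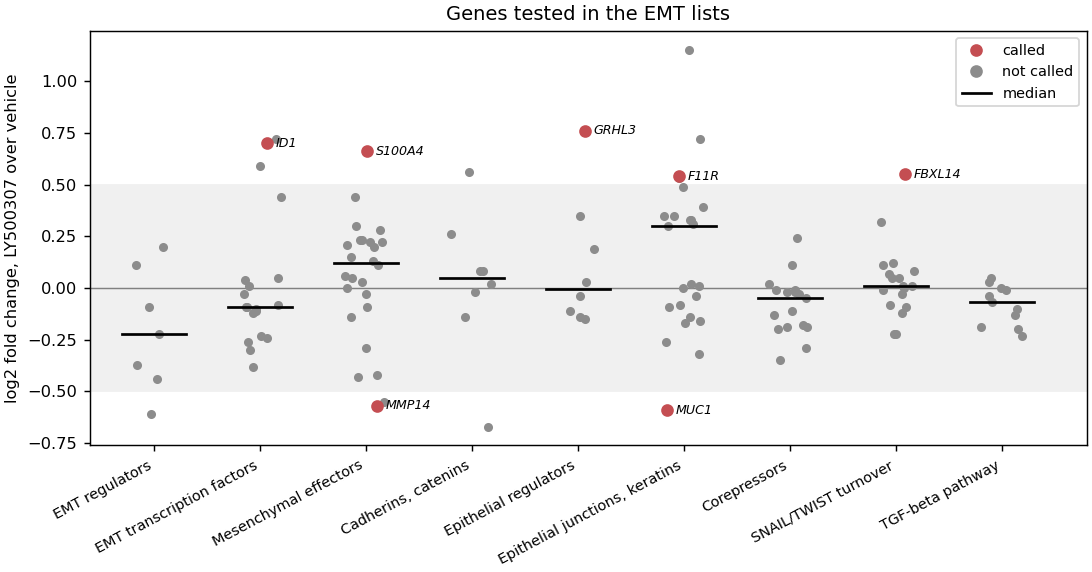
Log2 fold change of LY500307 over vehicle for genes tested in the EMT regulators and 8 related lists, with called genes in red, other genes in grey and the list median as a bar. The grey band spans changes of 0.5 or less in size. The medians cover all genes tested, and the epithelial regulators as drawn include RBFOX2 and QKI, which promote mesenchymal exon use. The called genes drawn lay in 5 of the lists, with MMP14 and MUC1 below the band and the others above it, and none was among the EMT regulators.

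ZEB1-AS1, transcribed on the opposite strand beside ZEB1, had 291 and 281 reads in vehicle and 288 and 286 reads with LY500307. Its log2 fold change was -0.19 (SE 0.17; edgeR adjusted p = 0.621), and it was not called. The strand setting of the counting is not given in the sources used here, so reads in stretches that ZEB1 and ZEB1-AS1 share cannot be told apart.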

How the data were processed

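RNA-seq was analysed for 2 vehicle and 2 LY500307 samples of cells labelled SKOV3 ALDH+ OCSCs. Per the labels and the submitters' processing notes, the authors aligned reads to hg19 with TopHat2 2.0.8b, counted them per gene symbol with HTSeq and deposited raw counts, without normalization. The study's methods describe stranded mRNA libraries, whereas the labels describe total RNA libraries. The 5 tally lines were left out of the gene counts (reads on no feature were 25.5% to 30.8% of gene, ambiguous and no-feature reads).

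The main test used edgeR 4.0.16 under R 4.3.3 (TMM, filterByExpr, quasi-likelihood test, Benjamini-Hochberg adjustment over 14473 genes). The study's criteria defined a call: p below 0.05 before adjustment, with a log2 fold change over 0.5 in either direction. The SE is the absolute log2 fold change divided by the square root of F. RPKM divides CPM by the length of the canonical GENCODE transcript (GRCh37, the same assembly as hg19), and 91.6% of the 23228 symbols were matched to this annotation, 2134 by an older symbol. The steps were tested on simulated counts. The members and lists were chosen with earlier results of these data known. The genes named are all members and, per list, up to 5 called genes with the smallest p and the 2 highest by mean CPM. Others were named after their values were seen. Some genes under this rule are left out of the text and plots. Alternatives were DESeq2 1.42.0, its size factors, library totals, other filters, GC and length corrections (loess span 0.3, prior count 2), a replicate block and leaving out each sample. Deviations from the group mean correlated at -0.07 between same-numbered samples. With 2 samples per group, both pairs give this same value by construction, so it cannot decide whether samples were paired. The main test did not take the numbers to pair samples, and the replicate block was run as an alternative. Ratios with CDH1 or GRHL2 got no permutation test because of counts of 0.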

Additional observations from a re-analysis of the deposited data

How the results depend on the processing

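Under the 10 alternatives in tool, scaling, filter, correction and block, all 7 members tested kept their direction and none was called. ZEB1 ranged from -0.38 to -0.31, ZEB2 from -0.63 to -0.51, SNAI2 from -0.50 to -0.37 and VIM from 0.15 to 0.24. With 1 library left out at a time, 0 to 2 members were called (2 without LY500307 replicate 1, SNAI2 and ZEB1), and TWIST1 ranged from -0.23 to 0.05 and CDH2 from -0.01 to 0.22, changing sign without LY500307 replicate 2 and replicate 1, respectively. Calls over all genes were then 352 at the lowest, with LY500307 replicate 2 left out, and 1987 at the highest, with replicate 1 left out, and calls in the wider lists ranged from 6 to 15. The length correction gave 5 calls in the wider lists in place of 8. The causes were not tested. Of all calls, 59.8% were higher with LY500307, 69.7% with library totals, 51.2% with the GC correction, 50.9% with the length correction, 46.9% with the block and GC correction, 47.0% with the block and length correction and 42.0% without LY500307 replicate 2. With the replicate block, 717 genes and 0 members were called, and ZEB1 was at -0.38 (edgeR adjusted p = 0.349). An adjusted p under 0.05 was found for 1 gene with the block, 3 with the block and GC correction, 164 with the block and length correction, 590 without LY500307 replicate 2 and 5002 without LY500307 replicate 1. CDH1, ESRP1 and GRHL2 are limited by depth.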

Other observations

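OVOL2, a zinc finger repressor of ZEB1, had 3 and 2 reads in vehicle and 11 and 12 reads with LY500307. It was too low to be tested, and it was named after its values were seen. CLDN4, a claudin of epithelial tight junctions, had 25 and 5 reads in vehicle and 35 and 41 with LY500307, a log2 fold change of 1.15 (SE 0.64; edgeR adjusted p = 0.474), and it was also named after its values were seen. SNAI3, the remaining member of the SNAIL family, had 24 and 31 reads in vehicle and 25 and 34 reads with LY500307, with overlapping groups.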
